A study of Mus musculus with 8 samples.

Results

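The homing and retention integrins described here are 8 genes chosen by symbol from the 52459 genes of the expression table: the α-chain genes Itgae (CD103), Itgal, Itga4 and Itga6, and the β-chain genes Itgb7, Itgb1, Itgb2 and Itgb3. All 8 were listed, and all 8 passed the filter of a mean of at least 10 normalized counts, which 15419 genes passed. Integrins are adhesion receptors made of 1 α and 1 β chain, and neither chain reaches the cell surface in useful amounts without a partner. In T cells, αEβ7 binds E-cadherin on epithelium and is known as a retention receptor, α4β7 binds MAdCAM-1 on gut vessels, α4β1 binds VCAM-1, αLβ2 (LFA-1) binds ICAMs during adhesion and antigen recognition, and α6β1 binds laminins. Their avidity is set by signals from inside the cell as well as by the amount of protein, and the values here are of mRNA only.

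Treg cells were sorted from spleen and lymph nodes of healthy female C57BL/6 mice heterozygous for Foxp3-YFPcre, and RNA was sequenced from 2 libraries of each genotype without and 2 with stimulation, 8 in all. The mice carried Stim1 fl/fl and Stim2 fl/fl alleles, and Cre was driven by the Foxp3 promoter on the X chromosome, so that random X inactivation left cells with and without Cre in the same animals. WT cells were CD4+CD25hi YFPcre- and Stim1/2-deficient cells (DKO in the plots) CD4+CD25hi YFPcre+; floxed alleles are therefore shared by both, and genotype cannot be told apart from expression of the Foxp3-YFPcre allele. Cells were left unstimulated or kept for 16 h with plate-bound anti-CD3/CD28 antibodies at 1 µg/ml. The age of the mice was not given in the sources used here. Each library came from pooled mice, and p-values measure the spread between such pools.

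Between 11851853 and 16306540 reads per library were counted on genes, and the deposited values are those counts divided by 1 size factor per library (normalized counts, with 1 read worth 0.759 to 1.48). Stim1 and Stim2 were not called changed. In unstimulated cells Stim1 had 1139 and 1377 normalized counts in WT and 1538 and 1868 in Stim1/2-deficient libraries, and Stim2 906 and 908 against 904 and 744. Counts per gene do not separate deleted exons, and deletion was not tested here. The study reported that YFP+ Treg cells of such females lacked store-operated calcium entry. Directions below are those of libraries labelled Stim1/2-deficient. Unstimulated libraries were sequenced in lane 4 and stimulated libraries in lane 1, so stimulation and lane cannot be told apart. Foxp3, Cd4 and Cd3e were present in all 8 libraries. Foxp3 was lower in Stim1/2-deficient libraries, at 4947 and 4258 normalized counts against 10001 and 8159 in WT without stimulation. With stimulation it had 4474 and 7253 against 8525 and 11918. The 6 Treg markers summed to 85605 to 112665 normalized counts in WT libraries and to 40109 to 85817 in Stim1/2-deficient libraries. Ctla4 and Ikzf2 were called lower in unstimulated cells, and DESeq2 also called Foxp3 and Il2ra lower there. DESeq2 called 8.68% of tested genes in that contrast. The part of these differences in the integrin results was not tested. The summed level of 10 macrophage markers was 7899 and 1258 normalized counts in unstimulated Stim1/2-deficient replicates 1 and 2, against 179 to 322 normalized counts in the other 6 libraries, and 8 B cell markers summed to 3407 and 860 against 214 and 310 in unstimulated WT libraries. In stimulated cells the B cell sums were 868 and 163 in WT and 1290 and 316 in Stim1/2-deficient replicates 1 and 2. The 7 neutrophil markers summed to 1093 and 496 against 235 and 127 without stimulation, and to 839 and 152 against 564 and 274 with it. The 5 CD8 T and NK markers reached 962 and 982 in replicate 1 of the unstimulated and stimulated Stim1/2-deficient groups, against 218 to 487 elsewhere. Members with a large difference in unstimulated cells are therefore also given without replicate 1. In bulk RNA, fewer cells of a type and less RNA per cell cannot be told apart.

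Itgae was the member with the largest difference between genotypes. It fell about as far without stimulation as with it, while Itgb3 rose in both states. Of the 8 members, 1 was called lower and 1 higher in unstimulated Stim1/2-deficient cells, where 3.35% and 1.38% of the 15419 tested genes were called lower and higher. The same 2 genes were called in stimulated cells, where 0.11% of tested genes were called lower and 0.162% higher. A gene was called at a limma adjusted p (Benjamini-Hochberg over all tested genes) under 0.05 with more than a 1.5-fold change, with log2 values taken after adding 1 to the normalized count. The median log2 fold change of the 8 members was -0.21 in unstimulated cells and -0.01 in stimulated cells, against -0.01 and 0.02 over all tested genes. The study itself listed Itgae, Itgb1, Itgb7 and Itgb3 among integrin genes that it selected from these libraries, so their directions are not independent evidence.

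**Figure D1:**
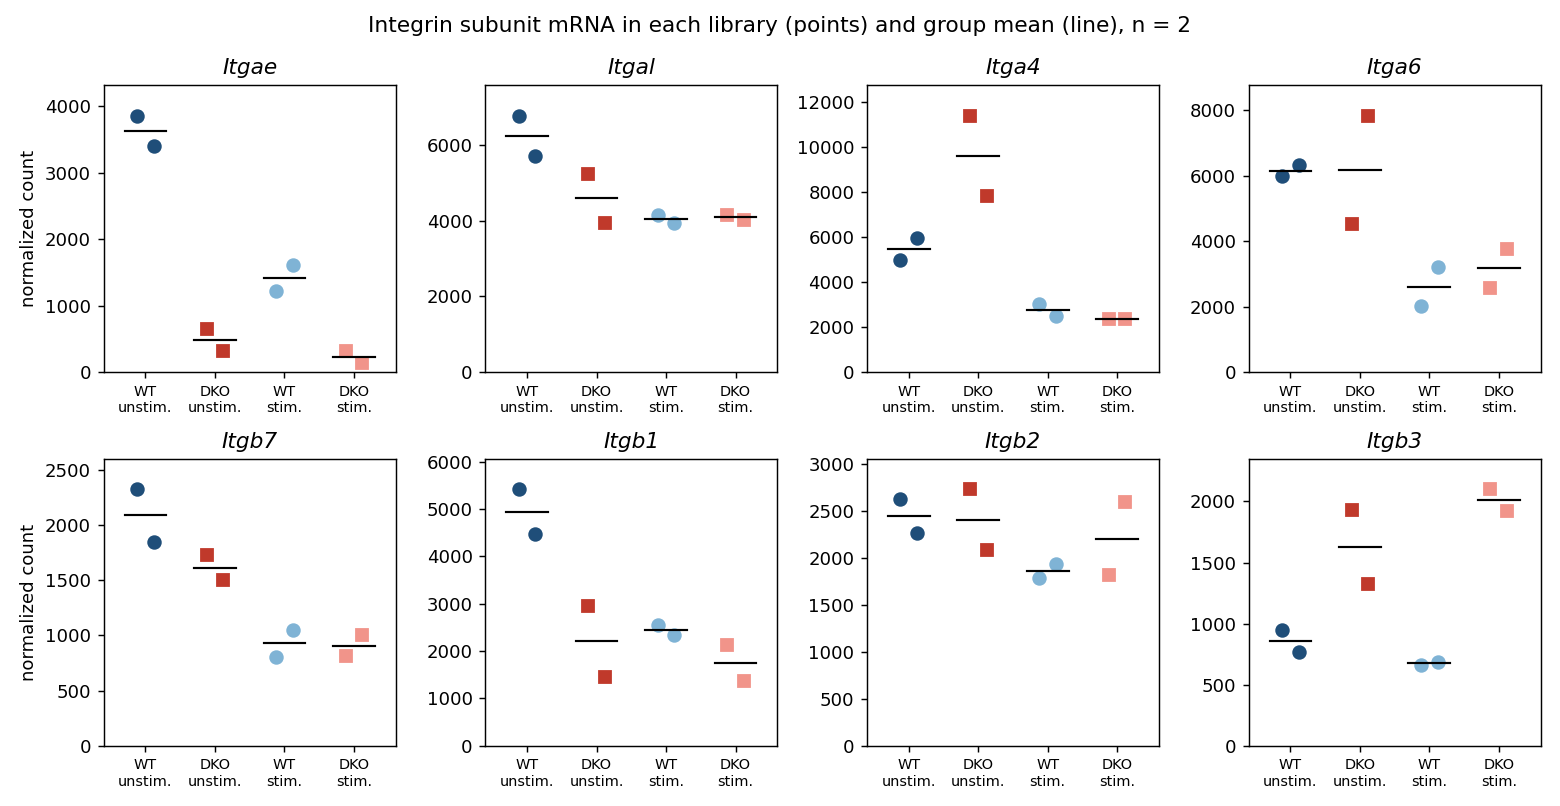
Normalized counts of the 8 integrin genes (y axes, from 0) in each library by group (x axes); points are libraries, circles WT and squares DKO (Stim1/2-deficient), and lines are means of 2 libraries. Itgae lay between 136 and 650.1 in the 4 DKO libraries and between 1218 and 3859 in the 4 WT libraries, and Itgb3 showed the opposite order, with 664 to 949 in WT and 1321 to 2098 in DKO libraries.

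Itgae encodes αE, which pairs only with β7 and marks Treg cells held in epithelial tissues. The gene lies on chromosome 11 from 73090505 to 73147449 (GRCm38.p6, RefSeq). Unstimulated WT libraries had 3859 and 3408 normalized counts of Itgae, and unstimulated Stim1/2-deficient libraries had 650.1 and 309.85. Both Stim1/2-deficient libraries lay far below both WT libraries, and the log2 fold change of Stim1/2-deficient over WT cells was -3.01 (standard error, SE, 0.41, adjusted p by limma = 0.00803), an 8.06-fold lower level. After stimulation, the counts were 1218 and 1609 in the WT pair, and 322 and 136 in Stim1/2-deficient libraries. The groups again did not overlap, with a log2 fold change of -2.74 (SE 0.41, adjusted p by limma = 0.0392). The effects in both states differed by 0.27 on the log2 scale (SE 0.59, adjusted p by limma = 0.925). Without Stim1/2-deficient replicate 1, which held the most macrophage transcripts, the log2 fold change in unstimulated cells was -3.54 (limma adjusted p = 0.00441). The call in unstimulated cells was lost without either WT library, where few of all tested genes were called. The log2 fold change stayed between -3.54 and -2.48 with each library left out. In stimulated cells the call was made in 9 of 14 other settings. It was lost in edgeR on recovered reads (adjusted p = 0.0655), with 0.1 added instead of 1 and with every gene above 0. It was also lost with the 4 libraries of the contrast and with equal totals without mitochondrial genes. Without WT replicate 1, WT replicate 2 or Stim1/2-deficient replicate 2 it was lost too, where hardly any of all tested genes was called. With each library left out the log2 fold change stayed between -3.36 and -2.12.

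Itgb7, the β chain that αE shares with α4, was not called by genotype in either state. The gene lies on chromosome 15 from 102215994 to 102233405. Its normalized counts were 2321 and 1849 in unstimulated WT libraries and 1725 and 1497 in unstimulated Stim1/2-deficient libraries. The latter were both lower, by a log2 fold change of -0.37 (SE 0.22, adjusted p by limma = 0.357), which did not pass the test. In stimulated cells Itgb7 had 807 and 1049 normalized counts in WT libraries and 813 and 1003 in Stim1/2-deficient libraries, and the groups overlapped (log2 fold change -0.03, SE 0.22, adjusted p by limma = 0.976).

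Itga4 encodes α4, the chain that pairs with β7 for gut homing and with β1 for binding VCAM-1, and lies on chromosome 2 from 79255426 to 79333114. The sign of its difference was opposite in the 2 states, and neither difference passed the test. Unstimulated WT libraries had 4986 and 5966 normalized counts and Stim1/2-deficient libraries 11389 and 7830.3. Every Stim1/2-deficient library was above every WT library, yet the log2 fold change of 0.79 (SE 0.21) did not pass (limma adjusted p = 0.0660), and it was 0.52 without Stim1/2-deficient replicate 1. Without replicate 2 it was 1.06 and called (limma adjusted p = 0.0121), and Itga4 was also called in DESeq2 (adjusted p = 0.0127) and with equal upper quartiles (limma adjusted p = 0.0480). After stimulation the counts were 3036 and 2479.8 in the WT pair, and 2349.7 and 2356 in Stim1/2-deficient libraries. All 4 libraries were then within a narrow range, with the Stim1/2-deficient ones lower (log2 fold change -0.22, SE 0.21, adjusted p by limma = 0.706).

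Itgb1 encodes β1, the partner of α4, α6 and many other α chains, and lies on chromosome 8 from 128685654 to 128733579. In unstimulated cells it had 5411 and 4466 normalized counts in WT libraries and 2944 and 1461 in Stim1/2-deficient libraries. Both Stim1/2-deficient libraries were lower and differed from each other about as much as the nearer one differed from WT. The log2 fold change was -1.24 (SE 0.31, adjusted p by limma = 0.0531), just outside the call. Without Stim1/2-deficient replicate 1 it was -1.75 (limma adjusted p = 0.00738), and without replicate 2 it was -0.74. DESeq2 on recovered reads called it (adjusted p = 0.00706). In stimulated cells Itgb1 had 2543 and 2329.5 normalized counts against 2122 and 1369, a log2 fold change of -0.51 (SE 0.31, adjusted p by limma = 0.525).

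Of the 8 members, Itgb7, Itga4 and Itgb1 had an entry in the promoter table used, and the 250 bases before the start that the table uses are shown to go with their values. For Itga4 and Itgb1 that start is the outer end of the gene as given above. For Itgb7 it is at 102231935, which lies 1470 bases inside the span of the gene, so the window shown for Itgb7 is within that span and does not precede the outermost start. They are RefSeq sequences of GRCm38.p6, written 5′ to 3′ on the strand of the gene, at chr15:102231936-102232185 (minus strand), chr2:79255176-79255425 (plus strand) and chr8:128685404-128685653 (plus strand). Capitals mark matches, on either strand, to the letters of an NFAT core (GGAAA), a RUNX site (TGTGGT), an Sp1 site (GGGCGG) or an AP-1 site (TGANTCA).
Itgb7: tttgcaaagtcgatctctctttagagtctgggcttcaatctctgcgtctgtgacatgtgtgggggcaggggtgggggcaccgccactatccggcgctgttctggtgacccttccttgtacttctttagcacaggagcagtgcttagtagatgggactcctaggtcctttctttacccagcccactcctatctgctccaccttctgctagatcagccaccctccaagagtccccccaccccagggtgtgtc
Itga4: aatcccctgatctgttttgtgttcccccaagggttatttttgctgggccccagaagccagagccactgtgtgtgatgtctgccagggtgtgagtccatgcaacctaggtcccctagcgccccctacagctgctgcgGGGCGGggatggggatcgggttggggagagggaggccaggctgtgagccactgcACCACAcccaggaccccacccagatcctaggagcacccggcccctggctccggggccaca
Itgb1: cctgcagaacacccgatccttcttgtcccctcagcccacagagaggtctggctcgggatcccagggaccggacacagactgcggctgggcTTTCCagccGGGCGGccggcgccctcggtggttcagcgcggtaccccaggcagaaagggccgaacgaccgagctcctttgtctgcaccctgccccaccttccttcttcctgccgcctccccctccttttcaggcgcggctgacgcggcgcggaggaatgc
The Itgb7 window, inside the span of the gene, held none of the 4 motifs. The Itga4 window held an Sp1 match that began 114 bases and a RUNX match that began 60 bases before the start, and the Itgb1 window an NFAT core 160 bases and an Sp1 match 151 bases before it. These matches did not overlap. Of 32851 mouse promoter windows of the same length, 55.6% held the NFAT core letters, 14% the RUNX letters, 32.7% the Sp1 letters and 6.75% the AP-1 letters, and a match describes the letters only. Promoters of Itgae, Itgal, Itga6, Itgb2 and Itgb3 were not analysed here.

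Itgal and Itgb2 encode the chains of LFA-1 and lie on chromosome 7 from 127296139 to 127335137 and on chromosome 10 from 77530329 to 77565708. Neither was called by genotype in either state with all 8 libraries. Itgal had 6784 and 5715 normalized counts in the unstimulated WT pair and 5253 and 3943 in Stim1/2-deficient libraries. The latter were lower without overlap, and the log2 fold change was -0.45 (SE 0.19, adjusted p by limma = 0.192). It was -0.66 without Stim1/2-deficient replicate 1 and -0.25 without replicate 2. In stimulated cells Itgal had 4147 and 3956 normalized counts in the WT pair against 4153 and 4032, a log2 fold change of 0.01 (SE 0.19, adjusted p by limma = 0.984). Itgb2 had 2629.9 and 2265 normalized counts in the unstimulated WT pair and 2734 and 2087 in Stim1/2-deficient libraries. The groups overlapped, and the log2 fold change of -0.03 (SE 0.22, adjusted p by limma = 0.955) changed sign under other scalings. Stimulated cells had 1784 and 1941 normalized counts of Itgb2 in WT libraries against 1818 and 2600.3 in Stim1/2-deficient libraries (log2 fold change 0.22, SE 0.22, adjusted p by limma = 0.716).

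Itga6, the laminin receptor α6, lies on chromosome 2 from 71786886 to 71858427. It had 5983 and 6319 normalized counts in the unstimulated WT pair, and 4537 and 7832 in Stim1/2-deficient libraries lay on either side of them (log2 fold change -0.04, SE 0.30, adjusted p by limma = 0.952). After stimulation the counts were 2003 and 3207 in the WT pair, and 2579 and 3755 in Stim1/2-deficient libraries. The groups overlapped there too (log2 fold change 0.30, SE 0.30, adjusted p by limma = 0.730).

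Itgb3 was the member that rose. It encodes β3, which pairs with αV to bind vitronectin and fibronectin and with αIIb on platelets, and lies on chromosome 11 from 104608000 to 104670476. Unstimulated WT libraries had 949 and 771 normalized counts and Stim1/2-deficient libraries 1927 and 1321. Both were above both WT libraries, with a log2 fold change of 0.90 (SE 0.22, adjusted p by limma = 0.0480). The call was made in 7 of 13 other settings. It was lost at 2-fold, in edgeR on recovered reads (adjusted p = 0.0584), with 0.1 added instead of 1 and with every gene above 0. It was also lost with the 4 libraries of the contrast and with equal totals without mitochondrial genes. Without WT replicate 3, WT replicate 4 or Stim1/2-deficient replicate 1 it was lost too. Few of all tested genes were called without either WT library. Without replicate 1, the library with the most macrophage transcripts, the log2 fold change was 0.63 (limma adjusted p = 0.102). In stimulated cells Itgb3 had 664 and 688 normalized counts in WT libraries against 2098 and 1922. The groups were far apart, with a log2 fold change of 1.57 (SE 0.22, adjusted p by limma = 0.0392), and macrophage markers there summed to 218 and 179 normalized counts in WT libraries and 322 and 288 in Stim1/2-deficient libraries. That call was made in 9 of 14 other settings. It was lost in the same settings as the unstimulated call except 2-fold, with an adjusted p of 0.0570 in edgeR. Without WT replicate 1, WT replicate 2 or Stim1/2-deficient replicate 2 it was lost too, where hardly any of all tested genes was called. With each library left out the log2 fold change stayed between 1.51 and 1.63. The 9 platelet and megakaryocyte markers summed to 22.0 to 143 normalized counts in a library and were higher in Stim1/2-deficient than in WT libraries of the same state, at 143 and 97.5 against 60.4 and 60.6 unstimulated and 38.9 and 73.4 against 24.9 and 22.0 stimulated. Of them Itga2b, Gp1ba and Clec1b passed the filter. Clec1b had 70.3 and 13.4 normalized counts in unstimulated Stim1/2-deficient libraries against 1.08 and 1.48 in WT, and 0 in stimulated libraries. Itga2b had 35.65 and 38.7 in Stim1/2-deficient libraries against 21.6 and 29.5 without stimulation, and 25.4 and 64.2 against 11.7 and 8.35 with it. Gp1ba overlapped without stimulation, at 25.2 and 34.7 in Stim1/2-deficient libraries against 33.45 and 19.2. With stimulation Gp1ba was lower in Stim1/2-deficient libraries, at 11.9 and 8.44 against 12.5 and 13.7. Pf4, Ppbp, Gp9, Gp1bb and Gp6 had at most 2.95 normalized counts in any library and Gp5 at most 7.34. The part of the macrophage and platelet transcripts in the Itgb3 values was not tested.

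**Figure D2:**
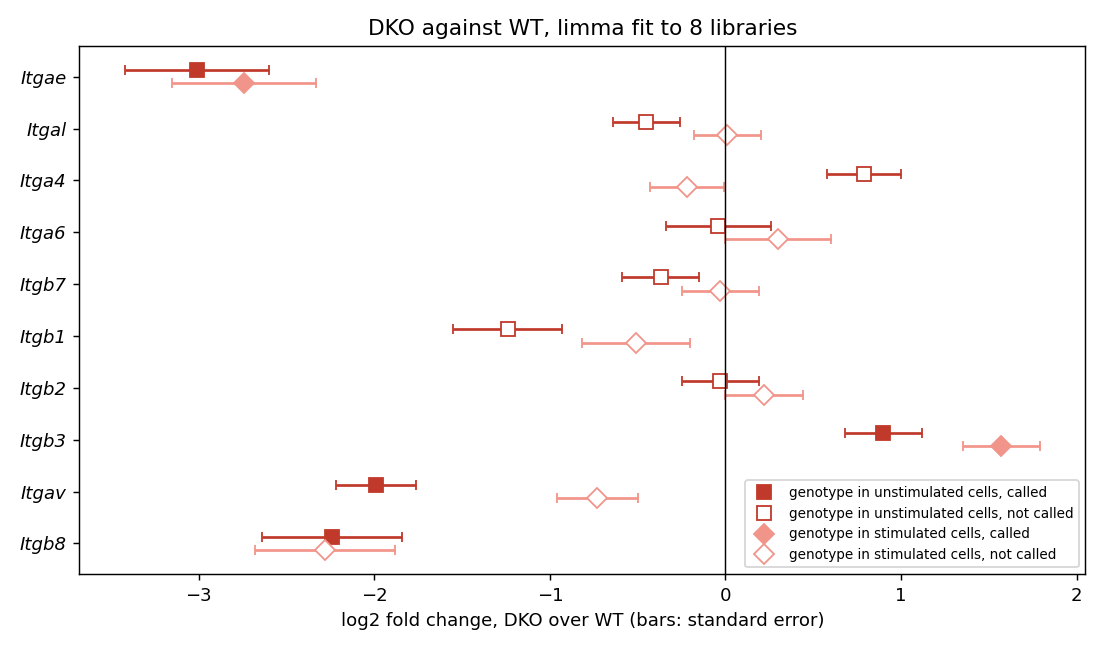
Log2 fold change of Stim1/2-deficient (DKO) over WT cells (x axis) for the 8 members, Itgav and Itgb8 (y axis) in unstimulated (squares) and stimulated (diamonds) cells; bars are standard errors (SE) of the limma fit and filled symbols are called genes. Itgae lies at -3.01 and -2.74 and Itgb3 at 0.90 and 1.57, while the other 6 members have open symbols in both states.

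Groups that did not overlap were common among all genes. In unstimulated cells 4 members (Itgae, Itgb7, Itgb1 and Itgal) had both Stim1/2-deficient libraries below both WT libraries, as 27.1% of tested genes did, and 2 (Itga4 and Itgb3) had them above, as 26.5% did. In stimulated cells 3 members (Itgae, Itga4 and Itgb1) were below, against 23.1% of tested genes, and 1 (Itgb3) above, against 24.3%. No member was called for the interaction of genotype and stimulation in limma, edgeR or DESeq2, nor was any of the 15419 genes called in limma (0% in either direction). At an unadjusted p under 0.05 and more than 1.5-fold, 1 member (Itga4) passed, and 8.09% of tested genes did. Its interaction was -1.01 on the log2 scale (SE 0.30, limma adjusted p = 0.556).

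The balance of partner chains was compared within each library, where size factors cancel. The log2 ratio of Itgae to Itgb7 normalized counts was 0.73 and 0.88 in unstimulated WT libraries and -1.41 and -2.27 in Stim1/2-deficient libraries. After stimulation it was 0.59 and 0.62 in WT libraries and -1.34 and -2.87 in Stim1/2-deficient libraries. The ratio was thus positive in all 4 WT and negative in all 4 Stim1/2-deficient libraries, and the mean difference over both states was -2.68. An exact permutation test of labels within each state, 2-sided, gave p = 0.0556, the smallest that 36 arrangements allow, and 0.167 after adjustment over the 6 ratios tested. The design cannot reach a p of 0.05 for any ratio. Itgae and Itgal both encode α chains and are not partners, and their ratio shares Itgae with the one above. It differed in the same direction, by -2.66 (exact permutation p = 0.0556, adjusted p = 0.167).

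The log2 ratio of Itga4 to Itgb7 differed by 1.16 in unstimulated and by -0.20 in stimulated cells, Stim1/2-deficient minus WT (exact permutation p over both states = 0.278, adjusted p = 0.278). That of Itga4 to Itgb1 was -0.12 and 0.42 in unstimulated WT libraries and 1.95 and 2.42 in Stim1/2-deficient libraries, which did not overlap. In stimulated cells it was 0.26 and 0.09 against 0.15 and 0.78, which overlapped, and over both states the exact permutation p was 0.111 (adjusted p = 0.167). For Itgal over Itgb2 the mean difference was -0.32 (exact permutation p = 0.111, adjusted p = 0.167), and for Itga6 over Itgb1 it was 1.00 (exact permutation p = 0.167, adjusted p = 0.200). Per 100 normalized counts of Itga4, the competitor of αE for β7, Itgae had 77.4 and 57.1 in unstimulated WT libraries, 5.71 and 3.96 in unstimulated Stim1/2-deficient libraries, 40.1 and 64.9 in stimulated WT libraries, and 13.7 and 5.77 in stimulated Stim1/2-deficient libraries.

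**Figure D3:**
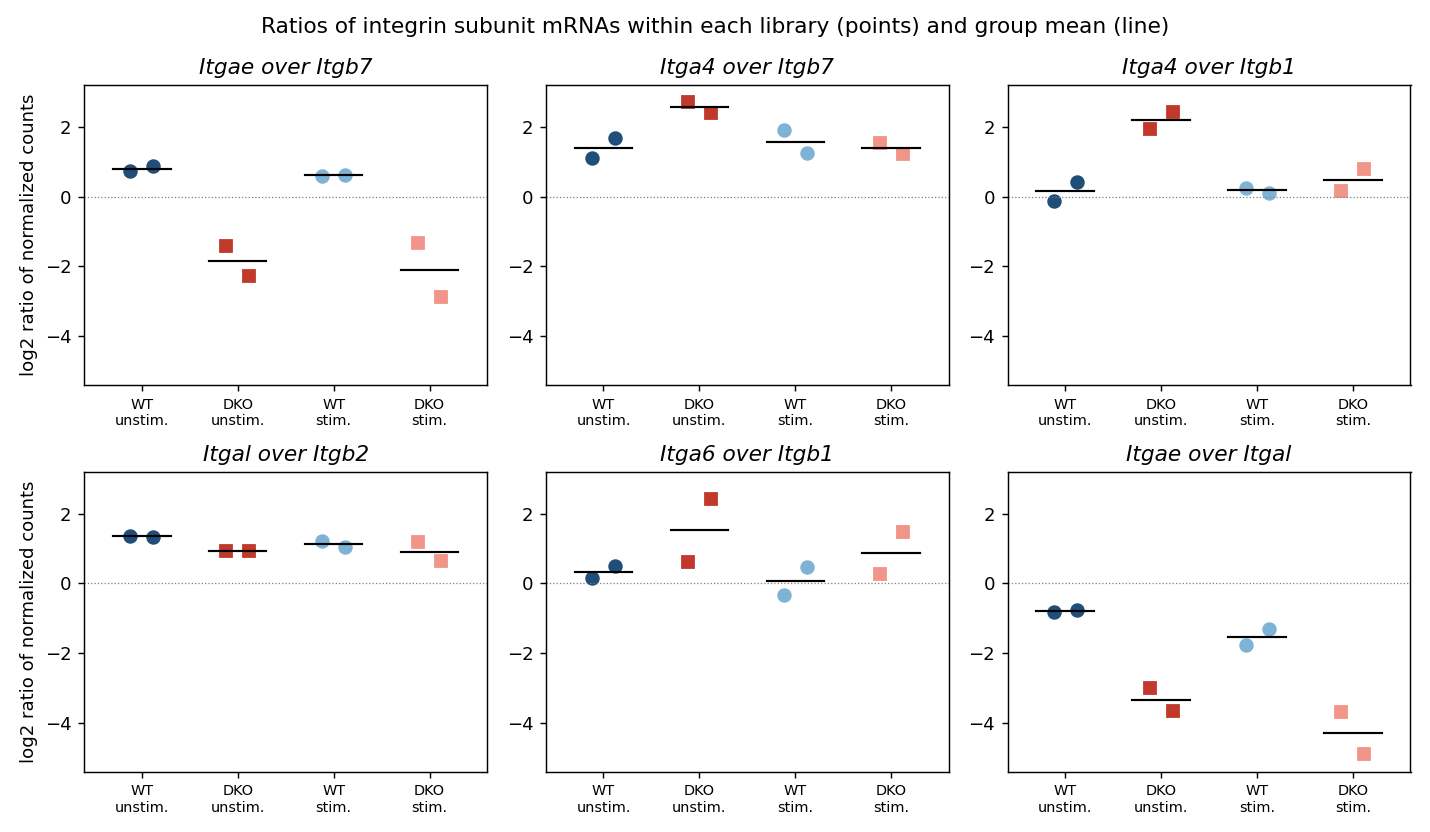
Log2 ratio of the normalized counts of 2 chains (y axes, same scale) in each library by group (x axes), with means of 2 libraries as lines; the dotted line marks equal counts. Itgae over Itgb7 is above 0 in the 4 WT libraries and between -2.87 and -1.34 in the 4 DKO (Stim1/2-deficient) libraries.

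Levels were compared between genes as normalized counts per kilobase of the longest coding transcript. In unstimulated WT cells the order of means was Itga6 (1427), Itgb1 (1294), Itgal (1197), Itgae (945), Itgb2 (824), Itgb7 (779.9), Itga4 (557) and Itgb3 (150.1). The ranges of the 2 libraries overlapped for Itga6 and Itgb1, for Itgb1 and Itgal and for Itgb2 and Itgb7, and not for the other neighbours. In unstimulated Stim1/2-deficient cells Itgae was the lowest of the 8 at 124.8 per kilobase, below Itgb3 at 283.5, and the ranges of these neighbours did not overlap. Itga6 had the highest mean (1435) and Itga4 the next (978), but the ranges of Itga6 and Itga4, of Itga4 and Itgal, of Itgal and Itgb2, and of Itgb7 and Itgb1 overlapped. In stimulated WT cells Itgal was highest at 776 and Itgb3 lowest at 118, each apart from its neighbour. In stimulated Stim1/2-deficient cells Itgal (784), Itgb2 (744) and Itga6 (735) overlapped, as did Itgb3 (351) and Itgb7 (339.6), and Itgae was lowest at 59.5 per kilobase, below Itga4 at 239 without overlap.

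The stimulation contrasts reuse the same libraries as the genotype contrasts. With the deposited size factors, 6 of 8 members were called lower after stimulation of WT cells, where 13.1% of tested genes were called lower and 10.2% higher, and none was called higher. The log2 fold changes were -1.37 for Itgae, -1.28 for Itga6, -1.17 for Itgb7, -1.01 for Itgb1, -0.99 for Itga4 and -0.62 for Itgal (limma adjusted p of 0.00517 to 0.0414), and -0.39 for Itgb2 and -0.34 for Itgb3 did not pass. In Stim1/2-deficient cells 3 of 8 were called lower, against 12% of tested genes, and none higher, against 13%. These were Itga4 (log2 fold change -2.0, SE 0.21, adjusted p by limma = 4.0e-04), Itga6 (-0.94, adjusted p = 0.0455) and Itgb7 (-0.83, adjusted p = 0.0198), and Itgae at -1.10 did not pass (adjusted p = 0.0779). Itgae was called lower there with a replicate block (adjusted p = 0.0116), with quantile normalization (adjusted p = 0.0428) and in DESeq2 (adjusted p = 0.0211), and its log2 fold change ranged from -1.72 to -0.48 with each library left out, closest to 0 without stimulated replicate 2. The median over the 8 members was -1.0 in WT and -0.56 in Stim1/2-deficient cells, against 0.01 and -0.03 over all tested genes.

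These counts depend on the scaling. Rescaling the libraries to equal totals shifted the median change with stimulation over all tested genes (log2) from 0.01 to 0.52 in WT and from -0.03 to 0.35 in Stim1/2-deficient cells, and the calls in WT from 2013 lower and 1580 higher to 974 and 4258. With any 1 of the 4 WT libraries left out, fewer members were called lower in WT cells, and so were fewer of all tested genes. Under equal totals Itgb7 was the 1 member called lower in WT cells, at -0.65, and Itga4 the 1 called lower in Stim1/2-deficient cells, at -1.61. Itga4 in Stim1/2-deficient cells was called lower in all 14 alternatives and with each of the 4 libraries of the contrast left out, with log2 fold changes of -2.27 to -1.61. Itgb7 in WT cells was called in all 13 alternatives. It lost its call without unstimulated replicate 3 or stimulated replicate 1, where fewer of all tested genes were called too.

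Other integrin chains frame these results. The study itself reported impaired expression of Itgav and Itgb8 from these libraries, so their directions are not independent evidence. Of 19 further integrin genes 15 were tested. In unstimulated Stim1/2-deficient cells 2 (Itgav and Itgb8) were called lower and 1 (Itgad) higher, against 3.35% and 1.38% of tested genes. DESeq2 called 3 lower, with Itgav and Itgb8 among them, and 1 (Itga9) higher but not Itgad, against 8.68% of tested genes. Itgad had the order of the macrophage markers, as given further below. The median log2 fold change of the 15 was 0.33, against -0.01 over all tested genes. In stimulated cells none was called in limma, against 0.11% lower and 0.162% higher, nor in edgeR. DESeq2 called 1 lower (Itgb8), against 3.57% of tested genes in either direction. At an unadjusted p under 0.05 and more than 1.5-fold, 2 were lower and 1 higher, against 12.6% of tested genes. Itgav, the αV partner of β3 and β8, had 5995 and 8484 normalized counts in the unstimulated WT pair and fell to 1589.7 and 2037 in Stim1/2-deficient libraries, a log2 change of -1.99 (SE 0.23, adjusted p by limma = 0.00499). In stimulated cells it had 4567 and 3812 against 2859 and 2201, and the log2 fold change of -0.73 did not pass (limma adjusted p = 0.180). Itgb8, which forms with αV a receptor that releases active TGF-β, had 813 and 925 normalized counts in the unstimulated WT pair and 276 and 122 in Stim1/2-deficient libraries (log2 fold change -2.24, SE 0.40, adjusted p by limma = 0.0181). With stimulation it had 3626 and 2955 in WT against 971 and 469, a log2 fold change of -2.28 (SE 0.40) that missed the call (limma adjusted p = 0.0537). Per 100 normalized counts of Itgav, Itgb3 had 15.8 and 9.09 in unstimulated WT libraries and 121 and 64.9 in Stim1/2-deficient libraries, and 14.5 and 18.0 against 73.4 and 87.3 in stimulated cells. Itgb3 was thus higher and Itgav lower in all Stim1/2-deficient libraries than in the WT libraries of the same state.

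**Figure D4:**
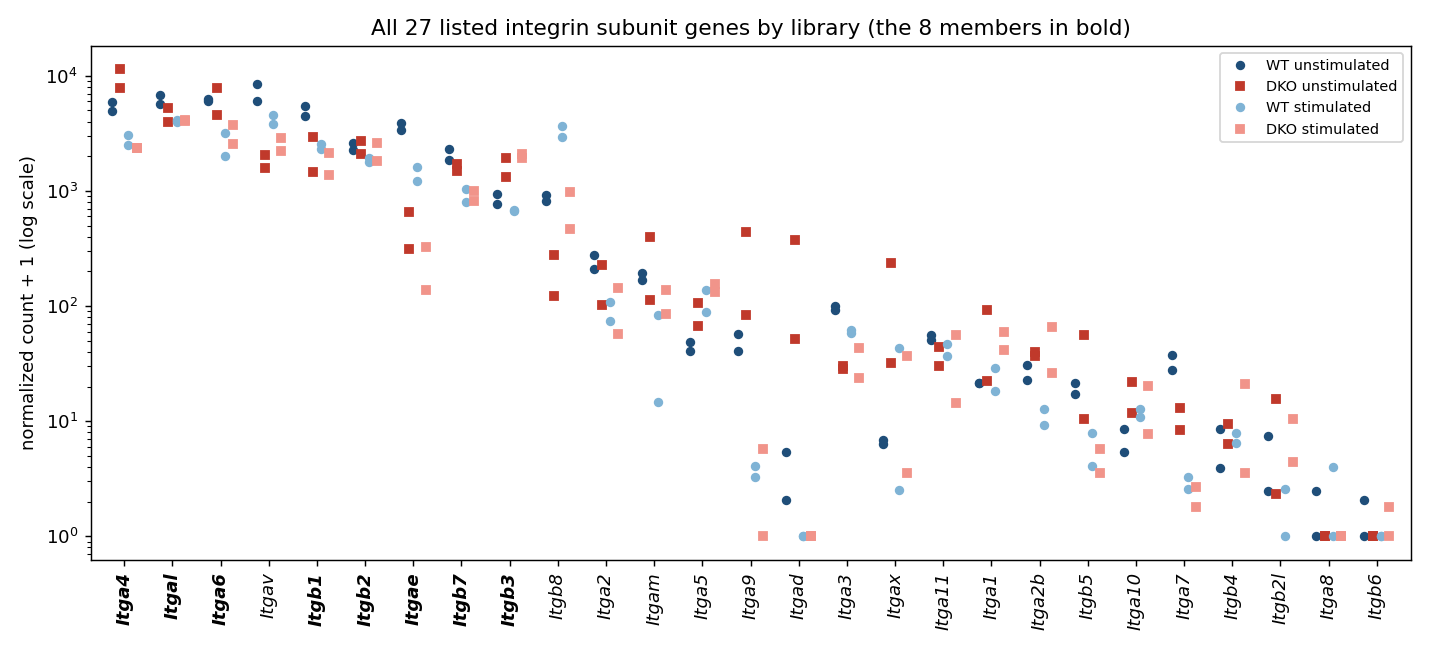
Normalized counts plus 1 (y axis, log scale) of 27 integrin genes (x axis, ordered by mean, the 8 members in bold) in each of 8 libraries; circles are WT, squares DKO (Stim1/2-deficient), dark symbols unstimulated and light symbols stimulated cells. The 8 members, Itgav and Itgb8 are the 10 genes with the highest means, and Itgad, Itgax and Itga9 are highest in unstimulated DKO replicate 1.

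Genes that act on integrins were given by lists. Of 16 integrin activators such as talins, kindlins and Rap1, 14 were tested and none was called by genotype in either state in limma or edgeR, with a median log2 fold change of 0.01 in unstimulated cells. At an unadjusted p under 0.05 and more than 1.5-fold, 1 passed in unstimulated and 2 in stimulated cells, where 19.7% and 12.6% of tested genes passed, and DESeq2 called 1 and 0, against 8.68% and 3.57% of tested genes. Of 9 inhibitors 8 were tested and none was called in either state in limma or edgeR, with a median of 0.00 in unstimulated cells, while 3 and 1 passed unadjusted and DESeq2 called 2 and 1, to be read against the same shares of tested genes. Of 20 adhesion signalling genes 16 were tested, and in unstimulated Stim1/2-deficient cells the kinase Src was lower (log2 fold change -2.71, limma adjusted p = 0.0225) and the actin crosslinker Actn1 higher (log2 fold change 1.32, limma adjusted p = 0.0223). Of 19 ligand genes 8 were tested. Lamc1, a laminin γ chain, was the 1 gene of these lists besides the members called in both states in limma: it had 1950.03 and 1966 normalized counts in the unstimulated WT pair against 310.4 and 351 (log2 fold change -2.56, limma adjusted p = 0.000500), and 1585 and 1852 against 646 and 519 in stimulated cells (log2 fold change -1.56, limma adjusted p = 0.0356). The call of Lamc1 in stimulated cells was lost in edgeR, with every gene above 0 and with the 4 libraries of the contrast. It was also lost without WT replicate 1, WT replicate 2 or Stim1/2-deficient replicate 2. Hardly any of all tested genes was called in those fits. Vcam1 was called higher in unstimulated cells, with 3027 and 447 normalized counts in Stim1/2-deficient libraries against 73.4 and 91.6 in WT libraries, in the order of the macrophage markers of those libraries. Of 11 membrane partners the tetraspanin Cd82 was called lower in unstimulated cells (log2 fold change -1.09, limma adjusted p = 0.0252). Of 14 genes of the TGF-β and retinoic acid pathways, which are known to induce Itgae and gut-homing integrins, 13 were tested, and Tgfbr1, a TGF-β receptor chain, was called lower in unstimulated cells (log2 fold change -0.85, SE 0.20, adjusted p by limma = 0.0447), though not in edgeR. In stimulated cells none of the membrane partner, adhesion signalling or TGF-β and retinoic acid genes was called in limma or edgeR, 3, 2 and 1 of them passed unadjusted, and DESeq2 called 1, 1 and 0, against 12.6% and 3.57% of tested genes.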

How the data were processed

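The deposited table holds signal values that the authors made from gene counts by dividing by 1 size factor per library and rounding to 2 decimals, so library totals differ. The sources disagree on the steps before. The methods name Bowtie, NCBIM37, Picard, HTSeq and DESeq2 for single reads, whereas the submitters' processing notes name mm10, STAR 2.7, bcl2fastq 1.8.4 and DESeq2, so the aligner is uncertain. Of the table's gene symbols, 28801 of 52459 are in the GENCODE vM1 annotation and 35095 in RefSeq for GRCm38, from which gene positions were taken. Transcript lengths are of GENCODE vM1. A stranded kit is named in the labels and an unstranded one in the methods; counting by strand is not stated, so reads of overlapping antisense genes cannot be told apart.

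Groups were taken from the labels. Values were multiples of 1 read in 100% of entries (tolerance 0.005), and whole reads were recovered. Log2 values (pseudocount 1) of genes with a mean of at least 10 were fitted with limma 3.58.1 in R 4.3.3 (lmFit, eBayes with trend, 1 model of 4 groups). Tests were 2-sided with Benjamini-Hochberg adjustment over all tested genes of a contrast. The study used DESeq2; because the table is normalized, edgeR 4.0.16 and DESeq2 1.42.0 on recovered reads were alternatives. The fits were tested on simulated data. Other alternatives were pseudocounts, filters, scalings, a 2-fold or unadjusted threshold, the 4 libraries of a contrast, a replicate block and each library left out. Equal totals without mitochondrial genes were added after seeing the data.

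Named are the 8 members, Itgav, Itgb8, up to 4 called genes per list and genotype contrast with the largest change, and the 2 genes most like each member. Itgax, Itga9, Itgam, Stim1, Stim2 and cell type markers are named besides as descriptions. The members and lists were chosen with earlier results of these data known. Intervals for read counting were not used, since the spread between pools was larger: chi-square per degree of freedom between libraries of a group was 10.71 to 78.53.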

Additional observations from a re-analysis of the deposited data

Results flagged for a closer look

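Itga4 was the 1 member for which every Stim1/2-deficient library lay on one side of the WT libraries without stimulation (above) and on the other side with it (below). The difference between the effects was -1.01 on the log2 scale (standard error 0.30), and in the limma test of the interaction its adjusted p was 0.556. Without unstimulated Stim1/2-deficient replicate 2 the difference was -1.28, and without replicate 1, which held the most macrophage transcripts, it was -0.74. The part of those transcripts was not tested.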

How the results depend on the processing

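With 2 pools a group, the calls depend on single libraries more than the sizes do. In unstimulated cells 1 member was called lower and 1 higher. The count of lower members was 2 at an unadjusted p, with a pseudocount of 5, with genes of a mean of at least 100 and in DESeq2. Lower calls over all tested genes, 517 in the fit used above, were 1705, 603, 531 (of 9147) and 817 in these settings. With a library left out, its group rests on the other library alone, so calls are not counted there. The count of higher members was 0 at 2-fold, with a pseudocount of 0.1 and with every gene above 0. It was also 0 in edgeR, with the 4 libraries of the contrast and with equal totals without mitochondrial genes. Higher calls over all tested genes, 213 in the fit used above, were 182, 146, 94 (of 30998), 131, 83 and 151 in these settings. Higher members numbered 2 at an unadjusted p, with equal upper quartiles and in DESeq2, with 1338, 286 and 521 higher calls over all tested genes. In stimulated cells both counts, of 1 each, were 0 with a pseudocount of 0.1, with every gene above 0 and in edgeR. They were also 0 with 4 libraries and with equal totals without mitochondrial genes. Over all tested genes, 17 lower and 25 higher calls became 4 and 4, 0 and 1, 0 and 1, 0 and 1, and 4 and 4 in these settings. For the interaction, 1 member was lower at an unadjusted p, where 543 of all tested genes were lower and 704 higher.

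After stimulation of WT cells, 6 members were lower, but 3 with every gene above 0 and 1 with equal totals. There were 2 with quantile normalization and 2 with equal totals without mitochondrial genes. Lower calls over all tested genes, 2013 in the fit used above, were 1642 (of 30998), 974, 1825 and 1208 in these settings. In Stim1/2-deficient cells 3 were lower, but 1 at 2-fold, with equal totals, with 4 libraries and with equal totals without mitochondrial genes. Lower calls over all tested genes, 1855 in the fit used above, were 1439, 1077, 872 and 1295 in these settings. With equal totals 1 member (Itgb3) was higher, and higher calls over all tested genes went from 1997 to 3791. The causes were not tested.

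Member log2 fold changes that turned their sign lay between -0.39 (Itgb2, stimulation of WT cells) and 0.34 (Itga6, interaction) in the fit used above. By genotype in unstimulated cells, Itgb2 became 0.09 with equal totals, 0.13 with equal upper quartiles, 0.08 with quantile normalization and 0.02 with equal totals without mitochondrial genes, and ranged from -0.23 to 0.16 with each library left out. Itga6 became 0.08, 0.12, 0.00 and 0.01 in the same order, 0.00 in edgeR and 0.02 in DESeq2, and ranged from -0.44 to 0.35. By genotype in stimulated cells, Itgal became -0.05 with quantile normalization and -0.03 with equal totals without mitochondrial genes, and with each library left out ranged from -0.02 to 0.05, Itgb7 from -0.22 to 0.16, Itgb2 from -0.03 to 0.48 and Itga6 from -0.04 to 0.64. For the interaction, Itgae became -0.17 with quantile normalization, and with each library left out ranged from -0.34 to 0.89, Itgb2 from 0.00 to 0.51 and Itga6 from -0.05 to 0.73. With stimulation of WT cells, equal totals gave 0.13 for Itgb2 and 0.18 for Itgb3, and equal totals without mitochondrial genes 0.02 for Itgb3. With stimulation of Stim1/2-deficient cells, equal totals gave 0.11 for Itgb1, 0.24 for Itgal and 0.25 for Itgb2, quantile normalization 0.16 for Itgal and 0.04 for Itgb2, and equal totals without mitochondrial genes 0.10 for Itgal and 0.12 for Itgb2. With each library left out there, Itgb1 ranged from -0.79 to 0.22, Itgal from -0.36 to 0.05 and Itgb2 from -0.39 to 0.12.

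Over all tested genes, the calls in unstimulated cells of 517 lower and 213 higher became 332 and 286 with equal upper quartiles, 353 and 241 with equal totals and 817 and 521 in DESeq2, and scaling to equal upper quartiles moved the median log2 fold change from -0.01 to 0.15. The calls in stimulated cells of 17 lower and 25 higher became 0 and 1 in edgeR and 299 and 251 in DESeq2. Replicate numbers 1 and 2 are shared by the stimulated groups and by both Stim1/2-deficient groups, without a label that pairs them, and the deviations of same-numbered libraries correlated across genes with r = 0.17 and 0.26. With a replicate block, 1 member was called lower and 1 higher by genotype in stimulated cells (202 and 191 of all tested genes), and 4 members (Itga4, Itga6, Itgb7 and Itgae) were lower after stimulation of Stim1/2-deficient cells.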

Other observations

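The integrin chains Itgad, Itgax and Itga9, which myeloid cells are known to express, were highest in unstimulated Stim1/2-deficient replicate 1. Itgad had 377 and 50.8 normalized counts in replicates 1 and 2 of that group, 1.08 and 4.43 in unstimulated WT libraries, which is 3 reads or fewer, and 0 in the 4 stimulated libraries. Itgax had 236 and 30.7 in that group against 5.40 and 5.91, and Itga9 had 437 and 82.8 against 56.1 and 39.9. Neither Itgax nor Itga9 was called by genotype there in limma (adjusted p = 0.172 and 0.260), while DESeq2 called Itga9 higher. Itgam, also a myeloid chain, had 393 and 111 in that group against 192 and 167, so that replicate 2 lay below both WT libraries. Its log2 fold change was 0.22 (limma adjusted p = 0.900). The macrophage markers of those 2 libraries had the same order, and their part in these values was not tested.

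Over the 8 libraries and 9147 genes whose mean reached 100 normalized counts, the log2 level of Itgae was most like those of Plcb4 (Pearson r = 0.996) and Arhgef12 (r = 0.986). For Itgb3 they were Cd2ap and Ifit1 (both 0.957), for Itgb7 Spn (0.985) and Myh9 (0.984), for Itga4 Gm42551 (0.989) and Sorl1 (0.984), for Itgb1 Cacna1d (0.972) and Mns1 (0.970), for Itgal Dhrs1 (0.987) and Arf3 (0.986), for Itgb2 Cbr1 (0.977) and Cep164 (0.976), and for Itga6 Akap13 (0.989) and Igf2r (0.988). These are descriptions over libraries that share groups and lanes. Among the members themselves, Itgae was most like Itgb1 (r = 0.91), while its r with Itgb7 was 0.52 and with Itgb3 -0.77.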
